A study of Mus musculus with 8 samples.

Results

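Genes of antibody-secreting plasma cells and of the secretion of immunoglobulin A (IgA) were examined in the distal ileum of mice that lack Cftr, the anion channel of epithelial cells whose loss causes cystic fibrosis. The 10 genes were chosen by symbol, namely Igha, Pigr, Prdm1, Xbp1, Irf4, Derl3, Mzb1, Tnfrsf17, Cd79a and Sdc1. All 10 were found among the 41128 genes of the deposited table, and all 10 passed the filter on low values (1 or more in no fewer than 3 of the 6 untreated libraries). Whole-tissue sections taken at most 6 cm above the ileocecal valve gave 1 polyadenylated RNA library per mouse, from 4 littermate couples of 1 Cftr -/- (KO) and 1 Cftr N/N (WT) animal of the same sex. KO mice carried the null allele Cftrtm1Cam on the FVB strain. The groups were untreated KO (n = 3), untreated WT (n = 3), KO with antibiotics (n = 1) and WT with antibiotics (n = 1). Couples 1 and 3 were labelled female, couple 2 male and the antibiotic couple female, and ages were not given in the sources used here. Antibiotic mice drank metronidazole at 0.5 g/L together with ciprofloxacin at 0.3 g/L, and all mice shared a diet low in fiber and a laxative that had been stopped for more than 4 days.

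IgA is made by plasma cells of the intestinal lamina propria, which descend from activated B cells. Pairs of IgA molecules are linked by the joining chain and are carried through the epithelium into the lumen by the polymeric immunoglobulin receptor, the product of Pigr. The transcription factors IRF4, BLIMP-1 (Prdm1) and XBP1 drive the change from B cell to plasma cell and enlarge the endoplasmic reticulum in which antibody is folded. Several of these genes are not restricted to plasma cells: Pigr and Sdc1 are made by epithelium, and Xbp1 also acts in Paneth and goblet cells. In whole tissue, fewer cells of a type and less RNA per cell cannot be told apart.

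Promoters, from 250 bases before to 50 after the transcription start, were available from RefSeq (GRCm38.p6) for 8 of the 10 genes. Those of Derl3 and Pigr are shown because they held the least common of the motifs that were found, among 6 searched. The sequences read 5′ to 3′ on the gene's strand. Capitals mark every CCACG on either strand, every occurrence of the palindrome CACGTG, and the outer blocks of the endoplasmic reticulum stress element. That element is CCAAT, then 9 bases of any kind, and after them the block CCACG, searched on either strand.
Derl3, chr10:75893148-75893447, plus strand: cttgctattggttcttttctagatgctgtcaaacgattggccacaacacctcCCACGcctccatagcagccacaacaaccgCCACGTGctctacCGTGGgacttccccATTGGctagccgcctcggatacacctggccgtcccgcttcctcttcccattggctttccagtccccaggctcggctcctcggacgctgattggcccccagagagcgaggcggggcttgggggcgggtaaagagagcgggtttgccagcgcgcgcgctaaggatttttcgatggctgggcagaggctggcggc
Pigr, chr1:130826434-130826733, plus strand: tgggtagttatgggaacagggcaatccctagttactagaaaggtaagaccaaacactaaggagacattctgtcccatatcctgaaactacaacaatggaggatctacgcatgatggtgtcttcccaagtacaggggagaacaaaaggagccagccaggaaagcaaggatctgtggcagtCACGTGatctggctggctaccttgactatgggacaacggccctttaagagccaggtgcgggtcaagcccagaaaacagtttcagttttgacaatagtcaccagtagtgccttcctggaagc
The stress element, which is bound by ATF6 and XBP1, was found on the minus strand of the Derl3 promoter, where it begins 138 bases before the start and runs back to 156 bases before it. It occurred in 39 of 32851 RefSeq promoters (0.119%) and in 1 of the 8. CACGTG, an E-box, lay 71 bases before the start of Pigr and 168 bases before that of Derl3, where it overlaps a CCACG. It occurred in 2 of the 8 promoters and in 7.15% of all promoters. CCACG occurred in 5 of the 8 (Derl3, Prdm1, Irf4, Cd79a and Sdc1) against 32.8% of all, and GAAAGT, a core shared by sites of PRDM1 and interferon regulatory factors, in 2 of the 8 (Irf4 and Tnfrsf17) against 14.3%. GACGTG, a core of XBP1 and ATF6 sites (6.38% of all), and the composite ETS and IRF site of GGAA and GAAA with 2 bases of any kind between them (2.72% of all) were in 0 of the 8. All motifs were searched on both strands. CACGTG and the stress element were added after the sequences had been seen, and a match describes letters only.

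The table does not name its unit. Values were taken as RPKM, that is per length of transcript, and levels of different genes are set beside each other on that reading alone. Their sorted values were identical in the 4 libraries of couples 1 and 2 and differed from these in the other libraries. The libraries were therefore taken as 3 separately normalized sets (couples 1 and 2, couple 3, and the antibiotic couple). That couple 3 and the antibiotic couple each form 1 set was presumed. A level set across these sets is a description. A library listed 11912 to 20896 genes above 0, and a listed 0 was not taken to mean that a gene is silent. The WT antibiotic library had repeated or implausible values for 423 genes. These were left out of results that use that couple, and 0 of the 10 genes were among them. Of the 423, 45 were dropped because WT read 0 while the KO littermate reached the filter value. No matching rule removed genes low in KO, so this step took out only genes with KO higher. Shares of genes higher in KO in that couple may therefore be too low, and the dropped genes were not tested in the antibiotic contrast. Cftr was 2.65 to 3.74 in untreated KO and 9.94 to 12.4 in untreated WT ileum, and 4.94 against 13.8 in the antibiotic couple. Fabp6, a bile acid binding protein that marks the ileum, was 779 to 2273 in untreated KO and 5128 to 6881 in untreated WT ileum, and 458 against 4955 in the antibiotic couple, and the part of this shift in the results was not tested.

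In untreated ileum, 3 of the 10 genes rose in KO, namely Prdm1, Derl3 and Mzb1, and 0 fell (limma, adjusted p under 0.05 over 11717 tested genes). Across all tested genes 1.15% were called higher and 1.01% lower. With the couple as a block Pigr and Xbp1 rose as well, which makes 5 of 10, against 8.4% of all genes called higher in that fit, and 0 fell, against 9.91%. Values of KO and WT did not overlap, with KO higher, for 7 of the 10 genes, against 10.4% of all tested genes. KO was the higher littermate in each of the 4 couples for 8 of the 10, against 14.1% of 11341 genes, and in each of the 3 untreated couples for the same 8, against 28.1% of all tested genes. Of the other 2, Sdc1 was lower in KO in all 4 couples, as 21.1% of genes were, and Cd79a was higher in 3 and lower in 1. Tnfrsf17 counts among the 7 and the 8, but all its untreated WT values were below 1. It passed the filter through its KO libraries alone, so its order in untreated ileum was fixed by the filter and is no support. Without the filter on low values, which tests more genes, the calls of Prdm1, Derl3 and Mzb1 were lost (limma adjusted p = 0.148, 0.164 and 0.185). The median log2 change was 0.79 over the 10 genes and -0.01 over all tested genes.

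**Figure D1:**
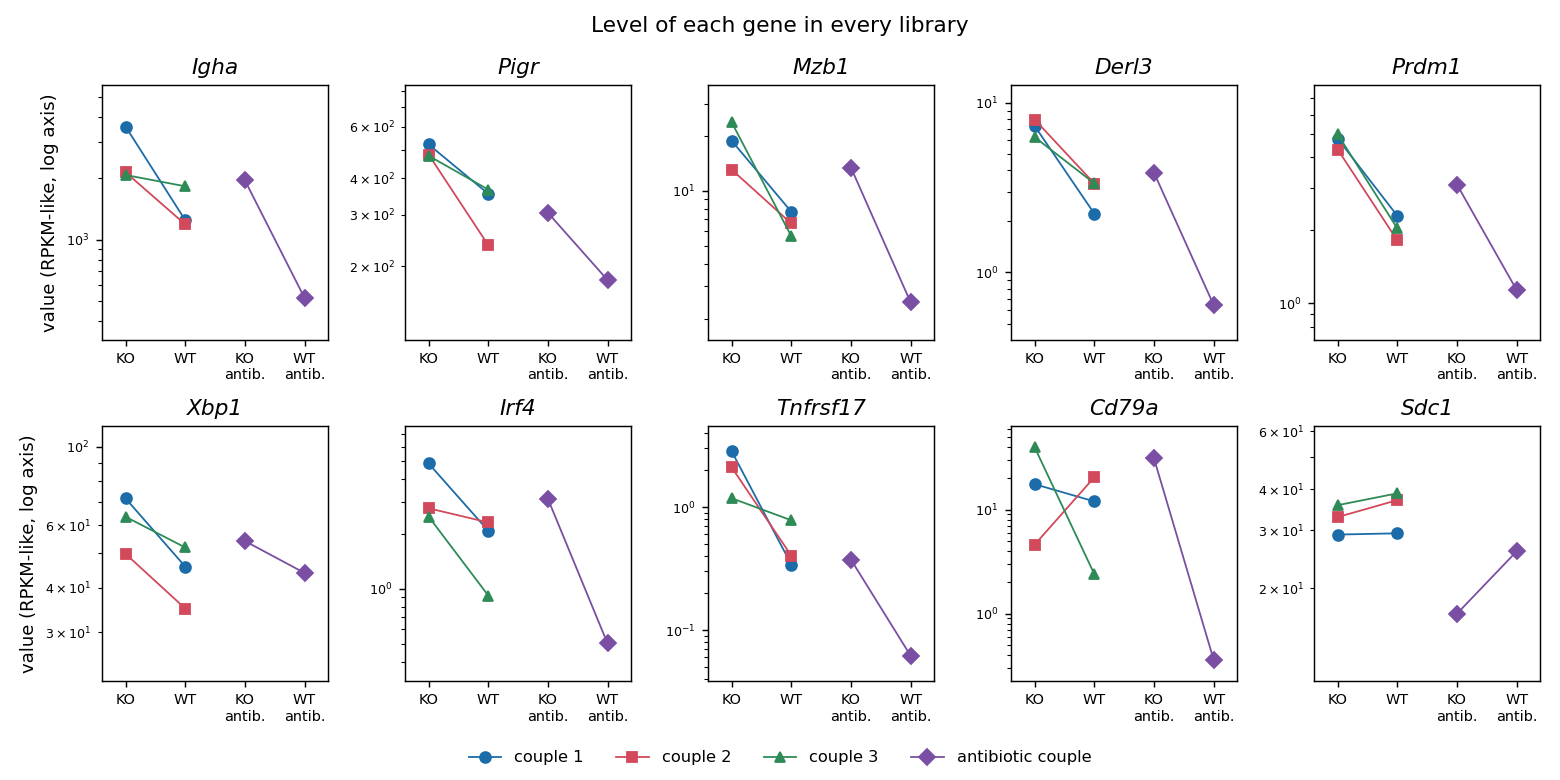
Value of each of the 10 genes in every library (RPKM-like, log axis that does not start at 0), with lines joining littermates. Lines slope down from KO to WT in all 4 couples for 8 genes, cross for Cd79a and slope up for Sdc1.

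The antibody product itself was abundant. Igha, the constant region of the IgA heavy chain (chromosome 12, 113254830 to 113260236, minus strand, GRCm38), was 3582, 2139 and 2075 in KO and 1246, 1189 and 1827 in WT ileum of couples 1, 2 and 3. Every KO library lay above every WT library, and Igha ranked 11th to 22nd of all genes in KO and 25th to 30th in WT. The mean was 2599 ± 852 in KO and 1421 ± 353 in WT (SD, n = 3 each). The log2 change was 0.85 (SE 0.38, 95% interval -0.03 to 1.73, limma adjusted p = 0.329, and 0.0908 with the couple block), so the call was missed in both fits. The KO over WT ratio was 2.88, 1.80 and 1.14 in couples 1, 2 and 3.

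Igkc and Igj, the kappa light chain constant region and the joining chain, moved in the same direction as Igha. Igkc was 4661, 3910.4 and 2964 in KO and 1481, 1159.7 and 1873 in WT, and Igj was 565, 275 and 465 in KO and 213, 101 and 219 in WT. KO and WT did not overlap for either gene. Both rose with the couple block (limma adjusted p = 0.0338 for Igkc and 0.00900 for Igj) and missed the threshold without it (limma adjusted p = 0.125 and 0.163). Of 9 tested immunoglobulin constant and joining chain genes, Igha included, 0 were called without the block and 3 rose with it. Among all tested genes 1.15% and 8.4% were called higher in these fits. The third gene to rise was Ighg1, an IgG heavy chain (67.5, 17.3 and 27.7 in KO and 12.1, 8.71 and 5.70 in WT). The median log2 change of the 9 genes was 1.31. Other heavy chains did not follow in couple 2: Ighm, the IgM chain, was 34.0, 9.23 and 59.2 in KO and 27.3, 34.5 and 5.40 in WT. Ighg2b, Ighg2c and Ighg3 were likewise lower in KO than in WT in couple 2. IgG constant genes resemble each other and the reads of an FVB mouse were mapped to the reference genome, so the split between them is uncertain.

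Pigr, the receptor that carries IgA across the epithelium (chromosome 1, 130826684 to 130852249, plus strand), was 523, 482 and 478 in KO and 354, 236 and 366 in WT. All 3 KO values lay above all 3 WT values, and the KO libraries were close to each other. The mean was 494 ± 24.6 in KO and 319 ± 71.9 in WT (SD, n = 3 each). Its log2 change was 0.66 (SE 0.26, 95% interval 0.05 to 1.27, limma adjusted p = 0.278), and with the couple block the SE was 0.15 and the adjusted p 0.0475. With the block the adjusted p was 0.115, 0.110 and 0.0727 without couples 1, 2 and 3. Relative to Pigr, Igha was 6.86, 4.43 and 4.34 in KO and 3.52, 5.04 and 4.99 in WT, which overlap. Relative to Epcam, an epithelial adhesion gene, Pigr was 0.761, 0.957 and 0.604 in KO and 0.498, 0.357 and 0.413 in WT, which do not. That separation holds for Epcam alone, since Pigr was not set against other epithelial markers. Krt8, another such marker, was 1852, 1967 and 2231 in KO and 1160, 2139 and 2075 in WT, so another divisor could give another result.

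Prdm1 encodes BLIMP-1, the repressor that ends the B cell programme (chromosome 10, 44437177 to 44528501, minus strand). It was 4.77, 4.31 and 4.97 in KO and 2.29, 1.81 and 2.03 in WT. Both groups were tight and well apart. The log2 change was 0.90 (SE 0.14, 95% interval 0.56 to 1.24, limma adjusted p = 0.0254, and 0.0119 with the block), and the ratio was 2.08, 2.37 and 2.44 in couples 1, 2 and 3. The call was lost without any 1 of the 6 libraries (adjusted p = 0.0646 to 0.129, log2 change 0.84 to 0.96). With the block it was lost without couple 1 (adjusted p = 0.0514) and not without couple 2 or 3 (0.0443 and 0.0381).

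Xbp1, the transcription factor of the unfolded protein response, is needed by plasma cells and by secretory epithelium (chromosome 11, 5520659 to 5525893, plus strand). It was 71.5, 49.9 and 63.5 in KO and 45.9, 34.9 and 52.0 in WT. The KO library of couple 2 lay below the WT library of couple 3, so the groups overlap, although KO was the higher littermate each time. On the log2 scale the change was 0.47 (SE 0.22, 95% interval -0.05 to 0.99, limma adjusted p = 0.36), and 0.0383 with the block. With the block the adjusted p was 0.105, 0.123 and 0.0755 without couples 1, 2 and 3. The 15 Paneth and goblet markers, whose cells also use Xbp1, summed to 14066, 8639 and 13089 in KO and 13908, 9409 and 11472 in WT, which overlap, and their part in the result was not tested. Much of that sum comes from defensin genes, which resemble each other, so the split of reads between them is uncertain.

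Irf4, which acts upstream of Prdm1 and Xbp1 and is also made by T cells and dendritic cells (chromosome 13, 30749226 to 30766976, plus strand), was 4.85, 2.76 and 2.49 in KO and 2.08, 2.31 and 0.920 in WT. The groups did not overlap, but the gap between the lowest KO and the highest WT value was small. Its log2 change was 0.66 (SE 0.28, 95% interval 0.0014 to 1.31, limma adjusted p = 0.312, and 0.064 with the block). With the block and without couple 2 it passed the threshold (0.0442).

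Mzb1 and Derl3 serve the secretory machinery. Mzb1, a protein of the endoplasmic reticulum that assists antibody assembly and secretion in B cells and plasma cells, was 18.8, 13.1 and 23.7 in KO and 7.68, 6.63 and 5.64 in WT. The lowest KO value was well above the highest WT value. Its log2 change was 1.32 (SE 0.23, 95% interval 0.78 to 1.86, limma adjusted p = 0.0353, and 0.0255 with the block). The call remained without KO of couple 2 (adjusted p = 0.0264) and was lost without any 1 of the other 5 libraries (0.0772 to 0.141). With the block it was lost without couple 1 (0.0777).

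Derl3 takes part in the removal of misfolded proteins from the endoplasmic reticulum and is rich in secretory cells (chromosome 10, 75893413 to 75895941, plus strand). It was 7.29, 7.96 and 6.27 in KO and 2.22, 3.34 and 3.35 in WT, with no overlap. On the log2 scale the change was 1.05 (SE 0.18, 95% interval 0.63 to 1.47, limma adjusted p = 0.0309, and 0.0191 with the block). The call was lost without any 1 of the 6 libraries (adjusted p = 0.0598 to 0.1001). With the block it was lost without couple 1 (0.0595) and without couple 2 (0.064).

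Tnfrsf17 encodes BCMA, the receptor for survival signals of long-lived plasma cells (chromosome 16, 11313812 to 11320074, plus strand). Values were low, at 2.85, 2.11 and 1.18 in KO and 0.341, 0.403 and 0.782 in WT. The gene passed the filter through its KO libraries alone, so the lack of overlap was fixed by the filter. The ratio was 8.34 and 5.23 in couples 1 and 2 and 1.51 in couple 3. The log2 change was 0.99 (SE 0.24, 95% interval 0.42 to 1.56, limma adjusted p = 0.0991, and 0.0605 with the block), on the log2(value + 1) scale, which understates changes of low genes. With a pseudocount of 0.1 it was 1.80, and the call was still missed. With the block and without couple 3 it passed the threshold (limma adjusted p = 0.0304).

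**Figure D2:**
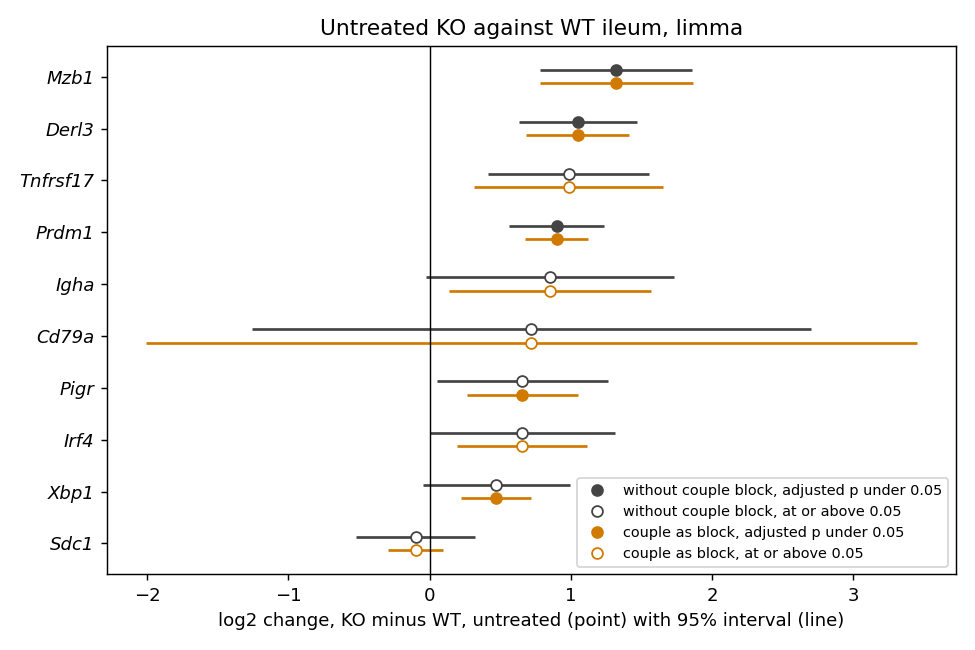
Log2 change of untreated KO against WT for each gene (x axis, KO minus WT, n = 3 each) with 95% intervals from limma, without the couple block (grey) and with it (orange). Filled points have an adjusted p under 0.05, which 3 genes reach without and 5 with the block.

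Cd79a and Sdc1 did not have higher KO values in every couple. Cd79a, a signalling chain of the B cell receptor that marks B cells more than mature plasma cells (chromosome 7, 24897381 to 24902197, plus strand), was 17.6, 4.61 and 39.8 in KO and 12.0, 20.5 and 2.40 in WT. KO was higher in couples 1 and 3 and lower in couple 2, and the groups overlap widely. The log2 change was 0.72 (SE 0.85, 95% interval -1.26 to 2.70, limma adjusted p = 0.742), and it was -0.71 without couple 3. Within a couple the ratio was 1.46, 0.225 and 16.6.

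Sdc1 encodes syndecan-1 (CD138), a cell surface proteoglycan that marks plasma cells and is also made by epithelium (chromosome 12, 8771323 to 8793715, plus strand). It was 29.1, 32.9 and 35.8 in KO and 29.4, 37.1 and 38.9 in WT, slightly lower in KO in each couple. Its log2 change was -0.10 (SE 0.18, limma adjusted p = 0.848), and the 95% interval from -0.52 to 0.32 leaves room for a change in either direction. The 12 epithelial markers summed to 6369, 6439.9 and 8269 in KO and 5299, 7258 and 8471 in WT. Of these 12, 0 were called without the block and 1, Vil1, was lower with it, against 9.91% of all tested genes.

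**Figure D3:**
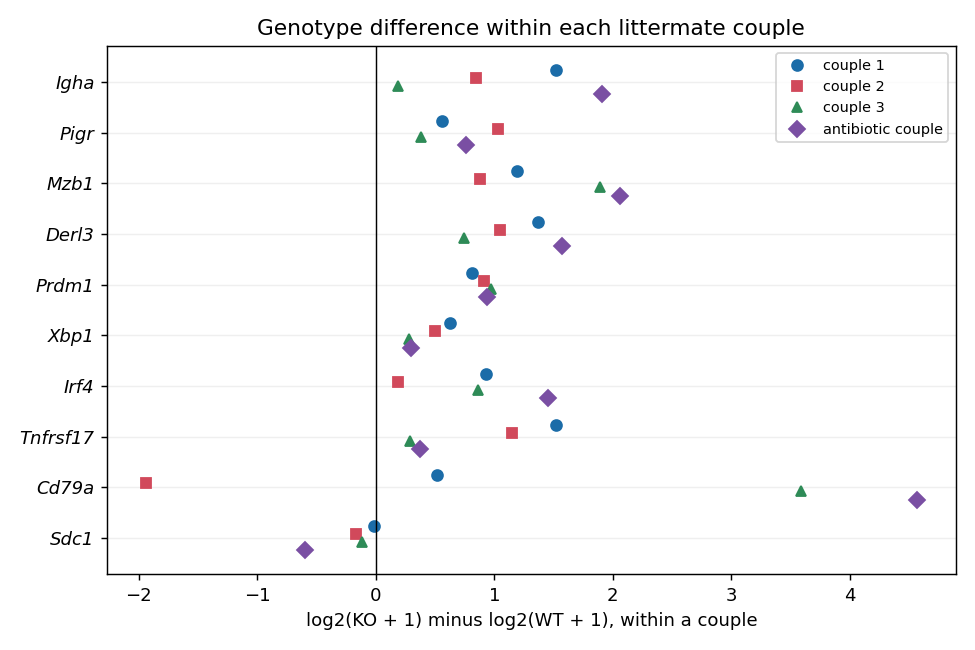
Genotype difference of each gene within a couple, as log2(KO + 1) minus log2(WT + 1) on the x axis, with 1 point per couple. Points of 8 genes lie right of 0 in all 4 couples, those of Sdc1 lie left of 0, and those of Cd79a run from -1.94 in couple 2 to 4.57 in the antibiotic couple.

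A further 25 plasma cell genes passed the filter. Of these, 3 rose and 0 fell without the block, against 1.15% and 1.01% of all tested genes. With the block 8 rose and 1 fell, against 8.4% and 9.91%. The 3 were Cd38, an ectoenzyme of lymphoid cells (39.5, 26.5 and 49.3 in KO and 14.4, 11.9 and 12.9 in WT), Fkbp11, a folding enzyme of secretory cells (8.90, 10.2 and 11.7 in KO and 3.95, 4.34 and 5.46 in WT), and Bst2, which interferon also induces (18.8, 18.7 and 18.7 in KO and 11.1, 7.54 and 9.48 in WT). Prdx4, a peroxidase of the endoplasmic reticulum, rose with the block (limma adjusted p = 0.0137, and 0.0952 without it). The most abundant gene of the list, Txndc5, was 63.2, 64.4 and 56.5 in KO and 48.8, 58.2 and 56.6 in WT (limma adjusted p = 0.691). The median log2 change of the 25 was 0.46.

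B cell genes, like Cd79a, differed widely between couples. KO was the higher littermate for 19, 3 and 22 of 23 tested B cell genes in couples 1, 2 and 3, with median log2 differences of 0.21, -1.40 and 2.31. For the 25 further plasma cell genes these counts were 20, 17 and 18, with medians of 0.44, 0.24 and 0.55. Over all tested genes KO was the higher littermate for 47.5%, 50.3% and 45.8%, with medians of -0.02, 0.00 and -0.03. Of the 23 B cell genes, the same 2 rose without and with the block, against 1.15% and 8.4% of all tested genes. They were Cd74 and Ciita, which serve antigen presentation by MHC class II in several cell types. Cd79b, the partner chain of CD79A, was 12.4, 2.83 and 25.9 in KO and 9.15, 10.7 and 1.42 in WT. Pou2af1, a B cell coactivator, was likewise lower in KO in couple 2, at 4.23 in KO and 7.06 in WT. T and NK cell markers also moved with genotype: they summed to 82.4, 99.9 and 91.8 in KO and 42.9, 36.4 and 31.9 in WT. Of 13 tested, 1 rose without the block, Cd3g (12.7, 10.4 and 12.1 in KO and 5.48, 4.98 and 4.09 in WT), and 6 rose with it. Across all tested genes the shares were 1.15% and 8.4%. The median log2 change of the 13 was 0.96, against 0.79 for the 10 genes of the report. KO was higher in all 4 couples for 9 of the 13, so the rise was not particular to plasma cell genes. Their part in the results for Irf4 and Prdm1, which T cells also express, was not tested.

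**Figure D4:**
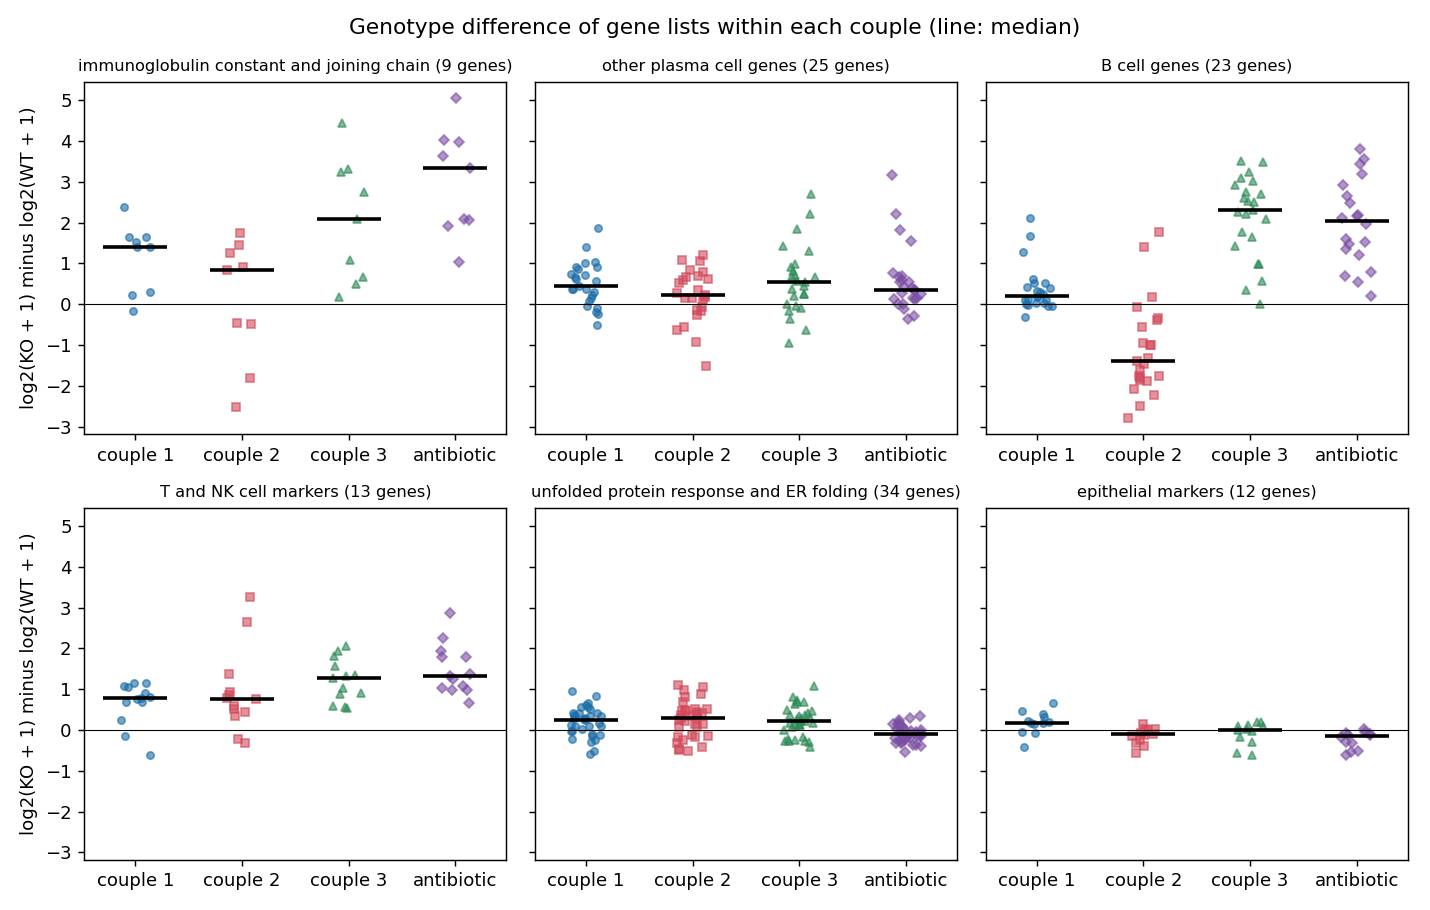
Genotype difference within each couple, as log2(KO + 1) minus log2(WT + 1) on the y axis, for the tested genes of 6 lists, with 1 point per gene and a line at the median. B cell genes have a median of -1.40 in couple 2 and 2.31 in couple 3, whereas those of the other plasma cell genes lie between 0.24 and 0.55 in the 3 untreated couples.

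Genes that call up, keep and attract IgA cells were also examined. Of 19 tested genes of IgA induction, survival and homing, 1 rose without the block, Nos2, the inducible nitric oxide synthase (61.3, 82.0 and 95.4 in KO and 31.2, 16.1 and 19.6 in WT), against 1.15% of all tested genes. With the block 2 rose and 2 fell, near the 8.4% and 9.91% of all tested genes. Ccl28, a chemokine that attracts IgA plasma cells, rose with the block (16.3, 14.8 and 15.6 in KO and 10.8, 5.53 and 7.67 in WT, limma adjusted p = 0.0270, and 0.0953 without it). The retinaldehyde dehydrogenases Aldh1a1 and Aldh1a2, which make retinoic acid, fell with the block (limma adjusted p = 0.0162 and 0.0400, and 0.114 for both without it). Aldh1a1 was 54.0, 71.1 and 186 in KO and 282, 244 and 465 in WT. Ccl25, the small intestinal homing chemokine, was 78.6, 94.9 and 126 in KO and 126, 98.2 and 159.5 in WT (limma adjusted p = 0.583).

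Of 24 tested genes of Pigr regulation and epithelial transport, 1 rose without the block. It was Irf1, an interferon-induced transcription factor (58.1, 59.4 and 80.3 in KO and 28.0, 25.4 and 31.1 in WT, limma adjusted p = 0.0269). With the block 3 rose and 3 fell, near the 8.4% and 9.91% of all tested genes. Tnf, an inflammatory cytokine, was among those that rose, at low values (1.82, 1.95 and 1.48 in KO and 0.634, 0.711 and 0.218 in WT). It too passed the filter through its KO libraries alone. Myo5b, a motor of apical recycling vesicles, was among those that fell (18.4, 25.3 and 25.3 in KO and 27.1, 34.4 and 37.4 in WT).

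Folding genes of the endoplasmic reticulum, which Xbp1 helps to control, were not called without the block (0 of 34, with 11 higher and 1 lower with the block). Among all tested genes 8.4% were called higher and 9.91% lower with the block. Of the 34 folding genes the following was seen. The median log2 change of the folding genes was 0.28, and KO was the higher littermate for 24, 24 and 25 of 34 in couples 1, 2 and 3. Sdf2l1, a chaperone cofactor, was 33.4, 40.8 and 44.0 in KO and 18.4, 18.6 and 24.5 in WT (limma adjusted p = 0.0634, and 0.0120 with the block). Creld2, another stress-induced protein of the endoplasmic reticulum, was 31.0, 48.7 and 43.4 in KO and 19.2, 22.8 and 26.5 in WT (limma adjusted p = 0.126, and 0.0197 with the block).

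Among all other tested genes at or above the median level, those whose log2 values over the 6 untreated libraries were most like those of Mzb1 were Cd38 (Pearson r = 0.991, Spearman rho 0.943), Cnp (0.983 and 1), Itga6 (0.982 and 0.943), Fam101b (0.981 and 0.943) and the immunoglobulin kappa variable gene Igkv4-70 (0.980 and 0.943). For Pigr they were Cfdp1 (0.989 and 0.771), Trim40 (0.983 and 0.771), Ppp1r14b (0.978 and 0.829), Pitpnb (0.977 and 0.943) and the heavy chain variable gene Ighv1-81 (0.976 and 0.943). The 6 libraries share 2 genotypes, 3 litters and what were taken as 2 normalization sets, so these are descriptions. Igkv4-70 was 57.5, 17.3 and 53.1 in KO and 6.94, 6.88 and 3.14 in WT.

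With antibiotics, the KO littermate had more of 9 of the 10 genes, against 43.2% of 11341 genes. Igha was 1954 in KO and 519 in WT, a ratio of 3.76. Pigr was 305 in KO and 179 in WT, a ratio of 1.70. Prdm1 was 3.08 in KO and 1.13 in WT, a ratio of 2.72. The ratio of Pigr lay within the range of the untreated couples, at 1.31 to 2.04, and that of Prdm1 lay above theirs, at 2.08 to 2.44. On the log2(value + 1) scale used for testing, the Prdm1 difference was 0.94, within the 0.81 to 0.98 of the untreated couples.

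Mzb1 was 13.4 in KO and 2.46 in WT with antibiotics, and Derl3 was 3.87 in KO and 0.644 in WT. Irf4 was 3.11 in KO and 0.503 in WT, and Tnfrsf17 was 0.374 in KO and 0.062 in WT. The ratios of these 4 genes were 5.45, 6.01, 6.18 and 6.04. They are not alike in weight: the WT values of Derl3 and Irf4 and both values of Tnfrsf17 lay below 1, the value of the filter. On the log2(value + 1) scale the differences were 2.06, 1.57, 1.45 and 0.37. Xbp1 was 54.2 in KO and 44.1 in WT, a ratio of 1.23. Cd79a had the widest gap, at 31.2 in KO and 0.360 in WT, and Sdc1 was again lower in KO, at 16.7 against 25.9. A ratio of at least 2 was reached by 7 of the 10 genes, against 5.24% of 11520 genes in that couple, and by 6, 4 and 4 in couples 1, 2 and 3 (4.17%, 4.75% and 5.6% of all tested genes). The 11520 genes were filtered on all 8 libraries and the others on the untreated ones, so these shares rest on different sets of genes. The 7 included Tnfrsf17 with its low values, as did the 6 and 4 of couples 1 and 2. A ratio of at most 0.5 was reached by 0 of the 10 with antibiotics, against 2.32% of genes. With 1 library per genotype these ratios have no replicate check.

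Igkc was 2460.4 in KO and 573 in WT with antibiotics, and Igj was 348 in KO and 83.0 in WT. All 9 tested immunoglobulin constant and joining chain genes, Igha included, were higher in the KO littermate. So were all 20 B cell genes without faulty values. The median log2 differences were 3.34 and 2.04. Of the 25 further plasma cell genes 22 were higher (median 0.35). Folding genes of the endoplasmic reticulum were higher for 12 of 34 (median -0.10), near the 43.2% and the median of -0.04 over all genes in that couple, and epithelial markers for 1 of 12. T and NK cell markers summed to 62.8 in KO and 11.3 in WT and were higher in KO for 13 of 13 (median 1.31). Their part in these differences was not tested.

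The difference between the antibiotic couple's genotype ratio and that of the 3 untreated couples was tested on within-couple differences. None of the 10 genes passed (limma adjusted p = 0.242 to 0.927), and 0 of 11520 genes (0%) were called in either direction, while 16.1% had an unadjusted p under 0.05, among them 1 of the 10, Sdc1. The fit without the couple block also called 0. For Igha the difference in log2 ratio was 1.06 with a 95% interval of -0.36 to 2.48, and for Prdm1 it was 0.04 with an interval of -0.42 to 0.50. For Cd79a the interval ran from -1.58 to 9.27. Intervals of this width do not show that the ratios were alike.

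Set beside the untreated libraries, the WT antibiotic library lay below all 3 untreated WT libraries for 9 of the 10 genes, Xbp1 being the exception, against 40.2% of all tested genes. The KO antibiotic library lay below all 3 untreated KO libraries for 6 of the 10, namely Igha, Pigr, Prdm1, Derl3, Tnfrsf17 and Sdc1, against 41.2% of all tested genes. Igha, for example, was 1954 in the KO library with antibiotics and at least 2075 in untreated KO. In WT it was 519 with antibiotics and at least 1189 untreated. Treatment, litter and the presumed normalization set coincide here and cannot be told apart, and no test was made.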

How the data were processed

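The authors deposited 1 table with a non-integer value per gene and library. Per the series' design text, reads from a HiSeq 2000 or an Ion Proton were mapped to GRCm38 (release 76) in CLC Genomics Workbench 7.5 at default parameters. No source used here gives the counting rule, the use of strand, the unit or the scaling. The deposited values were taken as RPKM, and their sorted values were identical in 4 libraries, as quantile normalization leaves them. Read depth is unknown, so no counting interval was computed.

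Values were analysed as log2(value + 1) with limma 3.58.1 (R 4.3.3, prior variance following a trend in level), and p-values were adjusted by the Benjamini-Hochberg method over all tested genes, with a threshold of 0.05. Genes below 1 in more than 3 of the 6 untreated libraries were left out of the untreated fit. For the antibiotic contrast the filter was 1 or more in at least 3 of all 8 libraries. The untreated fit used 6 libraries without a block. Couple numbers mark littermates per the labels, and littermates deviated together (correlations 0.622, 0.637 and 0.508). In couple 3 litter and the presumed normalization set coincide, so its correlation does not tell them apart. The blocked fit is printed beside the unblocked one for many genes. P-values reflect the spread between 3 mice per group. The antibiotic contrast was fitted on 4 within-couple differences, with the 3 untreated couples giving the spread, and without 423 genes: 376 with a repeated value in the WT antibiotic library, 45 at 0 there with at least 1 in KO, and 2 far below all others. The fits were also run on simulated data with independent noise per library. The simulation held no effect of couple or normalization set, so it cannot check how the fits handle these.

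The 10 genes and the lists were chosen with earlier results of these data known. From each list the text draws on genes called with or without the block (up to 4, smallest p first) and the 2 of highest level. The genes Ighm, Ighg2b, Ighg2c, Ighg3 and Pou2af1 and the ratios between genes were chosen after their values were seen. Alternatives were other pseudocounts, filters, scalings, no variance trend and libraries left out.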

Additional observations from a re-analysis of the deposited data

Results flagged for a closer look

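Of 52 list genes that the naming rule picked and that had no faulty value, 9 had a genotype difference that pointed one way in all 3 untreated couples and the other way in the antibiotic couple. Higher in untreated KO but lower in KO with antibiotics were Fkbp11 (log2 difference in the antibiotic couple -0.30), Ero1l (-0.19), Sdf2l1 (-0.10), Manf (-0.37), Calr (-0.23) and Pdia3 (-0.14). Lower in untreated KO but higher in KO with antibiotics were Sec24d (0.25), Il22ra1 (0.11) and Fgf15 (0.96). The difference between the antibiotic couple and the untreated couples missed the threshold for each of them (limma adjusted p = 0.0969 for Fkbp11 to 0.298 for Pdia3). None of the 10 plasma cell and IgA genes showed such a turn. Over all 183 tested list genes without faulty values 37 showed one (20.2%), against 25.3% of all 11341 tested genes. Among the 34 folding genes of the endoplasmic reticulum it was 19 (55.9%), a list singled out after its values were seen, and the cause was not tested.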

How the results depend on the processing

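In the untreated comparison 3 of the 10 genes were called higher, and 3 also under pseudocounts of 0.1 and 0.5, a filter at 0.1, both other scalings and no variance trend. With the replicate block 5 were called, and 0 without the filter on low values, which tests more genes. Leaving out 1 library gave 0 to 1 of the 10, leaving out 1 couple gave 0, 0 and 0 without couples 1, 2 and 3, and with the replicate block 0, 3 and 4 without them. Over all genes, 135 were higher and 118 lower. The counts were 984 and 1161 with the replicate block, 7 and 4 without the filter, and 43 to 76 higher and 25 to 79 lower without 1 library. Without any 1 couple they were 0 and 0, and with the replicate block, leaving out couple 1 gave 130 higher and 126 lower, couple 2 gave 231 higher and 243 lower, and couple 3 gave 276 higher and 303 lower. The smaller fits hold fewer samples. Cd79a ranged from -0.047 to 1.49 without 1 library, turned to -0.047 without WT of couple 3 and turned to -0.71 without couple 3, with or without the replicate block. The other 9 genes kept their direction under all 20 alternatives. In the antibiotic contrast all 7 alternatives called 0 genes. Prdm1 turned to -0.0085 without couple 1 and Pigr to -0.032 without couple 3. The cause was not tested. Unknown depth limits the low genes Tnfrsf17 and Irf4 most.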

Other observations

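Igkc relative to Igha was 1.30, 1.83 and 1.43 in untreated KO and 1.19, 0.975 and 1.02 in untreated WT ileum of couples 1, 2 and 3, so the groups did not overlap. It was 1.26 in KO and 1.10 in WT with antibiotics. Cd79a relative to Mzb1 was 0.937, 0.353 and 1.68 in KO and 1.56, 3.10 and 0.424 in WT, and 2.33 against 0.147 with antibiotics. These ratios were chosen after their values were seen, and no test was made.

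Of 8 tested myeloid markers 1 rose in untreated ileum without the couple block, against 1.15% of all tested genes. It was Cd14, a coreceptor for bacterial lipopolysaccharide, at 7.98, 8.94 and 8.87 in KO and 2.38, 2.85 and 2.46 in WT (limma adjusted p = 0.00478). With the block 2 rose, Cd14 and Lyz2, against 8.4% of all tested genes. Lyz2 was 185, 94.2 and 174 in KO and 80.1, 62.1 and 48.2 in WT (limma adjusted p = 0.0383 with the block, and 0.115 without it). The list as a whole did not follow these 2 genes: its median log2 change was 0.03. KO was the higher littermate for 7, 5 and 3 of the 8 in couples 1, 2 and 3, and for 3 with antibiotics. Csf1r was 10.2, 7.90 and 5.09 in KO and 6.92, 11.5 and 7.82 in WT (limma adjusted p = 0.815). Mmp7, a Paneth cell protease, was 175, 145 and 200.3 in KO and 99.6, 68.1 and 72.6 in WT (limma adjusted p = 0.0634, and 0.0177 with the couple block). Clca3, a goblet cell product, was 238, 199 and 302 in KO and 573, 549.8 and 639 in WT (limma adjusted p = 0.0525, and 0.00975 with the block).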
